A study of Ovis aries with 6 samples.

Results

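Growth factor signalling through PI3K-Akt, MAPK and Ras was examined in primary granulosa cells from Hu sheep ovaries (Ovis aries) after knockdown of INHBA, which encodes the beta A subunit of activin A and inhibin A. The genes were those of the deposited expression table whose KEGG annotation contains one of these 3 pathways. Genes also annotated to any of 10 cytokine, inflammatory, adhesion, cytoskeleton or cell cycle pathways were left out, and so was the ligand AREG. This left 33 of 1620 listed genes: 12 were annotated to PI3K-Akt, 20 to MAPK and 16 to Ras signalling, and 6 to all 3. Of the 33, RASGEF1A and RASGEF1B entered only through the fly version of the MAPK map, and 31 carried the exact pathway names.

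In these pathways a secreted growth factor binds a receptor tyrosine kinase, and adaptor proteins at the receptor recruit PI3-kinase and the exchange factors that load Ras with GTP. PI3-kinase activates AKT and related kinases, which restrain FOXO transcription factors. Ras activates a chain of kinases that ends in the MAP kinases ERK, JNK and p38, which dedicated phosphatases switch off. In the ovary, the KIT receptor and its ligand, EGF-like ligands and FOXO3 are known for roles in follicle activation, growth and ovulation.

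The cells were aspirated from follicles of at least 3 mm in ovaries collected at a slaughterhouse and were grown in culture. They received INHBA siRNA (siINHBA, 3 libraries) or a negative control RNA (siNC, 3 libraries), and RNA was taken 24 h later. Both groups thus went through culture and transfection. The labels do not say whether libraries came from separate cultures or animals, so p-values cover the differences among these libraries alone, and those may be technical. The age, number and pooling of animals are not stated in the sources used here.

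Every gene in the deposited table had been called changed by the authors. In the authors' deposited table no false discovery rate exceeded 0.0090 and no absolute log2 fold change was under 1.00. Counts over the listed genes summed to 2781548 to 2948524 in siNC and 1590871 to 2042924 in siINHBA, while the depth recovered from counts and FPKM ran from 0.952 to 1.17 times that of siNC library 1. INHBA stood at 21.2, 21.8 and 18.5 FPKM under siNC and at 8.02, 6.51 and 7.54 FPKM in siINHBA, a log2 fold change of -1.49 (SE 0.14, edgeR quasi-likelihood adjusted p = 3.9e-06). The size of this fall depended on the library scaling: with TMM, INHBA was lower by less, at -0.41 (edgeR adjusted p = 0.018). Of 18 granulosa markers 5 were listed: INHA, INHBA, NR5A1 and CYP11A1 were lower, of which NR5A1 did not pass under TMM (edgeR adjusted p = 0.33), and HSD17B1 was higher. Their summed level was 194 to 208 FPKM in the siNC libraries and 65.5 to 82.3 FPKM in the siINHBA libraries. CYP11A1 made up most of this sum, with means of 141.6 FPKM in siNC and 51.6 FPKM in siINHBA, and INHBA is the siRNA target. The summed markers of the other cell types given below were lower as well. Of 12 epithelial markers 3 were listed: KRT19 and UPK1B were lower, and PAX8 was higher at 1.41 on the log2 scale. Under TMM UPK1B did not pass (edgeR adjusted p = 0.95). Since only called genes are listed, the label of the cells could not be checked further. The siINHBA libraries differed more among themselves than the siNC libraries, with a median coefficient of variation over the 33 genes of 13.6% against 9.33%.

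At the recovered depth 23 of the 33 genes were lower (69.7%) and 10 higher (30.3%) in siINHBA, all past an adjusted p of 0.05 in edgeR's quasi-likelihood test. Over all listed genes 100% passed, 65.7% as lower and 34.3% as higher, so the split of the 33 genes was near that of the table. Because the authors selected the table on these same libraries, passing the test is no separate evidence. The median log2 fold change was -1.20 over the 33 genes and -1.16 over all listed genes. The siNC and siINHBA values did not overlap for any of the 33 genes, against 99.9% of listed genes. An exact two-sided permutation test on FPKM gave p = 0.1 for each of the 33 genes, the smallest value that 3 against 3 libraries allows.

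The scaling of the libraries decided many of these calls. With TMM factors taken over the listed genes, the log2 fold changes of the listed genes rose by a median of 1.09. The 10 higher genes then passed again, but 9 of the 23 lower genes passed as lower. Over all listed genes 56.7% passed under TMM, 22.5% as lower and 34.3% as higher. The 9 genes were ANGPT4, KIT, GAB2, RASGRF2, PTPN5, PLA2G2F, PLA2G3, PLCE1 and CACNA1G, which also lay below the median listed gene. The other 14 lower genes had TMM values of -0.43 to 0.08 and did not pass, and 2 of them, SGK1 and ANGPT2, were just above 0. Below, "lower" and "higher" are at the recovered depth, and the TMM value stands beside each of the 33 genes whose call it changes.

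**Figure D1:**
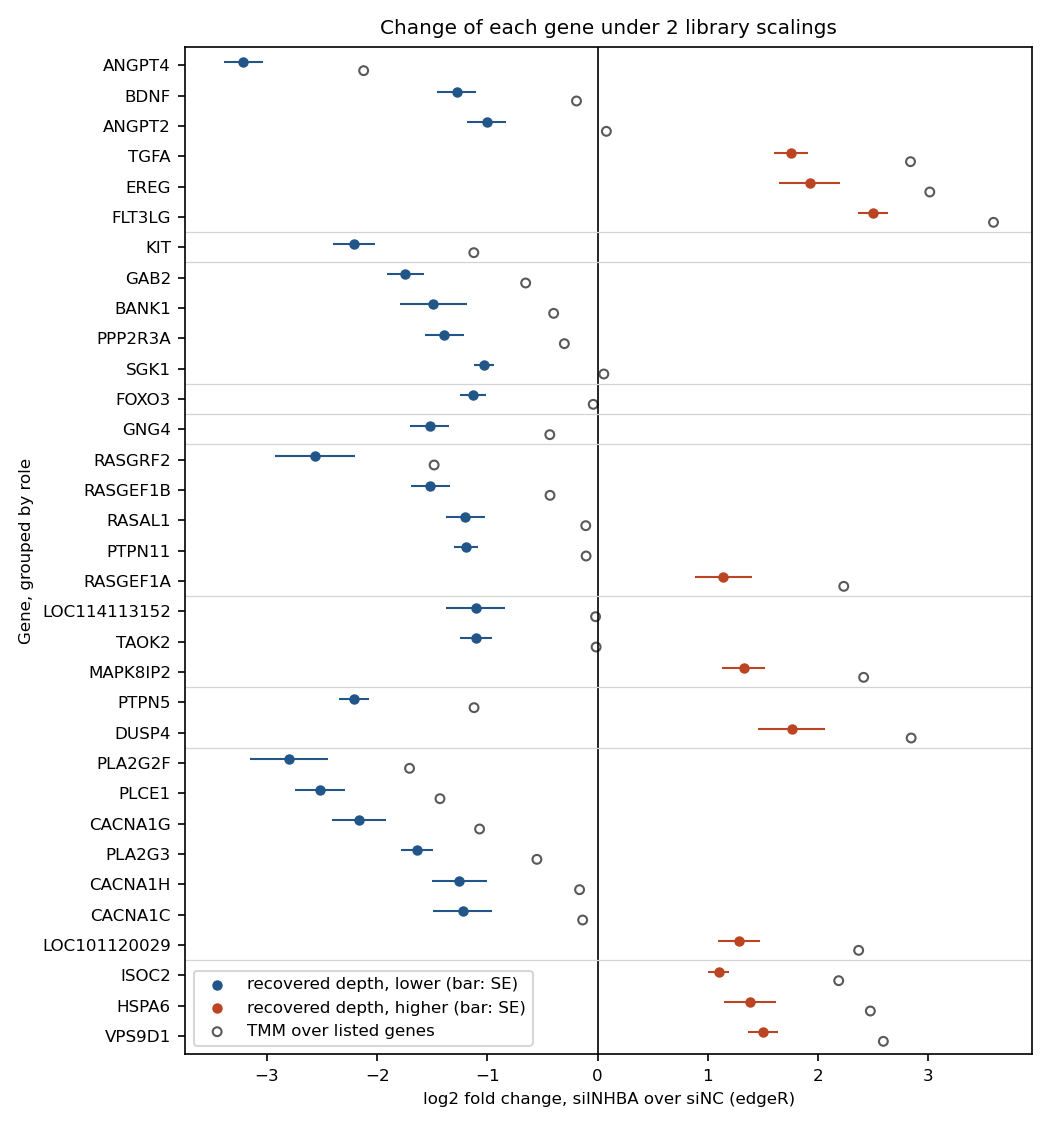
The log2 fold change of each of the 33 genes (siINHBA over siNC, 3 libraries each) is plotted by role, with filled points and SE bars at the recovered depth and open circles under TMM over the listed genes. All 10 higher genes are right of 0 under both scalings, while the open circles of 14 lower genes lie between -0.43 and 0.08.

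Levels differed widely between the 33 genes. SGK1 had the highest length-normalized level in either group, at 232 ± 3.23 FPKM with siNC and 113.1 ± 2.96 FPKM in siINHBA (mean ± SD, n = 3), and made up 51.7% to 52.9% of the summed FPKM of the 33 genes in siNC and 35.6% to 37.8% in siINHBA. Next in siNC were ISOC2 (39.0 ± 0.72 FPKM), GAB2 (26.3 ± 1.46), PTPN11 (21.8 ± 0.76) and FOXO3 (21.1 ± 0.68), of which PTPN11 and FOXO3 differed by less than the sum of their SDs. In siINHBA the third place went to FLT3LG, which was 15th in siNC. At the other end, 6 genes stayed under 1 FPKM in both groups: DUSP4, RASGRF2, PLCE1, CACNA1C, CACNA1H and LOC114113152. The 10 higher genes together rose from 53.4 to 55.6 FPKM per siNC library to 136.4 to 144.4 FPKM per siINHBA library, and ISOC2 was the largest part of that sum.

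**Figure D2:**
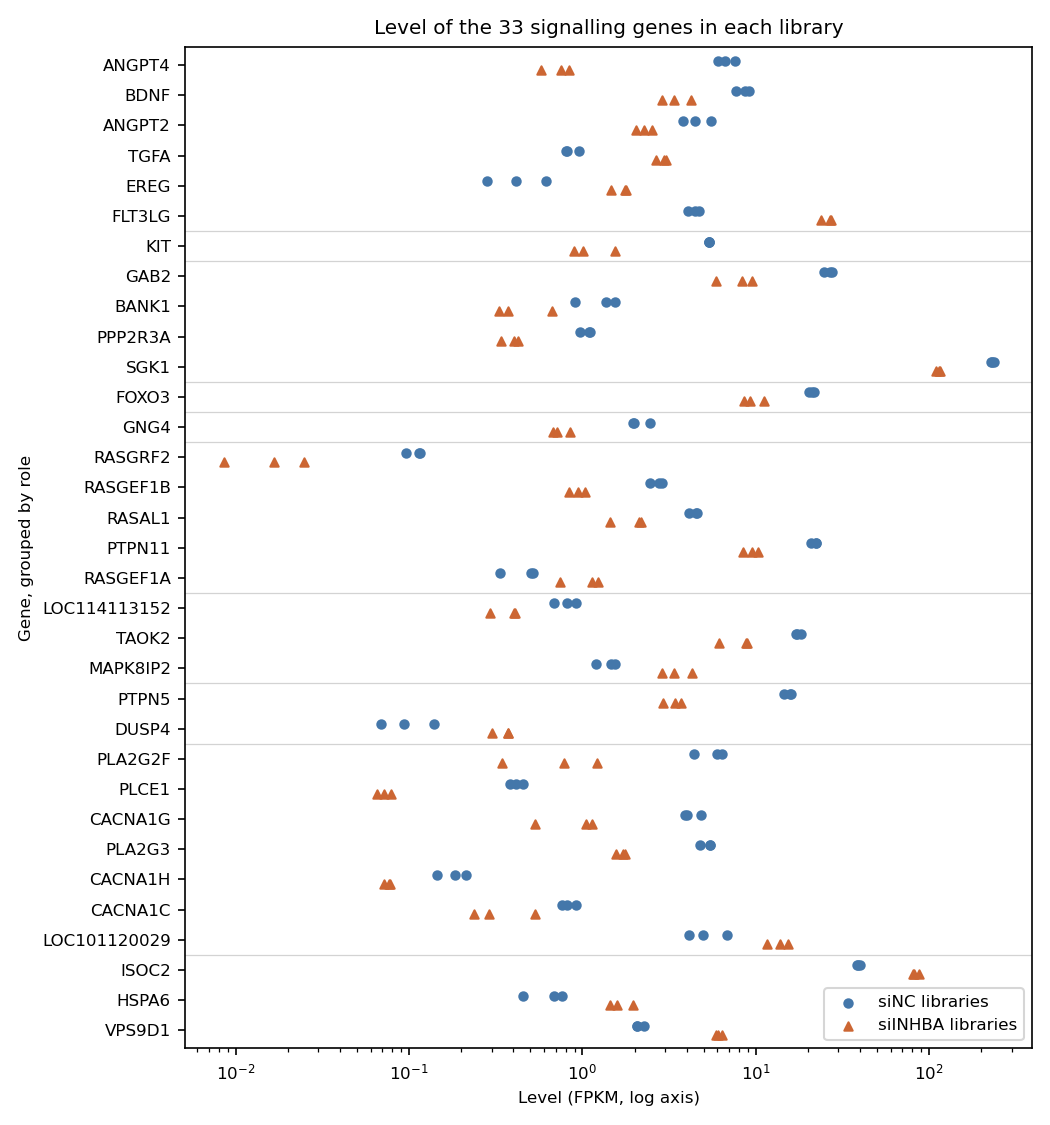
The level of each of the 33 genes in FPKM (log axis) is plotted for the 3 siNC libraries (circles) and the 3 siINHBA libraries (triangles), with genes grouped by role. Levels span from RASGRF2, under 0.12 FPKM in every library, to SGK1, at 109.6 to 235 FPKM, and the groups do not overlap in any row.

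The 6 ligands divided evenly, with 3 higher and 3 lower, of which ANGPT2 turned just above 0 under TMM. Over all listed genes 34.3% were higher and 65.7% lower. FLT3LG, the ligand of the FLT3 receptor of blood cell progenitors, was at 4.06, 4.45 and 4.71 FPKM under siNC and at 27.1, 23.7 and 26.8 FPKM in siINHBA. Its log2 fold change of 2.50 (edgeR: SE 0.14, adjusted p = 4e-07) was the largest rise among the 33 genes, and the lowest siINHBA library lay far above the highest siNC library. TGFA, an EGF-like ligand of the EGF receptor, was at 0.812, 0.800 and 0.958 FPKM under siNC and at 2.96, 3.05 and 2.65 FPKM in siINHBA, a rise of 1.75 on the log2 scale (edgeR: SE 0.15, adjusted p = 3.4e-06). EREG (epiregulin), an EGF-like ligand that LH induces in rodent granulosa cells, was at 0.415, 0.620 and 0.281 FPKM under siNC and at 1.77, 1.79 and 1.47 FPKM in siINHBA. Its siNC libraries were spread, from 36 to 77 counts, and its log2 fold change was 1.92 (edgeR: SE 0.27, adjusted p = 6.2e-05). AREG, a related ligand outside the 33 genes, stood at 6 to 12 counts in siNC and 79 to 114 in siINHBA. The receptor of these ligands, EGFR, was not among the listed genes, nor were ERBB2, ERBB3, ERBB4 and FLT3.

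ANGPT4, an angiopoietin that binds the endothelial receptor TEK, had the largest fall of the 33 genes. It was at 6.61, 7.59 and 6.07 FPKM under siNC and at 0.841, 0.579 and 0.757 FPKM in siINHBA, which is 10.7% of the control mean, with a log2 fold change of -3.21 (edgeR: SE 0.17, adjusted p = 4e-07). Under TMM it stayed lower at -2.12 (edgeR adjusted p = 1.2e-06). Its relative ANGPT2, which opposes or replaces the TEK activator ANGPT1 depending on context, was at 4.44, 3.78 and 5.51 FPKM under siNC and at 2.51, 2.05 and 2.28 FPKM in siINHBA. ANGPT2 was lower by 1.01 on the log2 scale at the recovered depth (edgeR: SE 0.18, adjusted p = 0.00025), and it had a value of 0.08 under TMM (edgeR adjusted p = 0.75). BDNF, a neurotrophin that granulosa cells also secrete, was at 7.65, 8.69 and 9.16 FPKM under siNC and at 4.25, 3.37 and 2.89 FPKM in siINHBA, a log2 fold change of -1.28 (edgeR: SE 0.18, adjusted p = 5.1e-05), which TMM reduced to -0.19 (edgeR adjusted p = 0.39). The BDNF groups stood apart in every library. Of 12 endothelial markers KDR and VWF were listed, of which VWF did not pass under TMM (edgeR adjusted p = 0.44), and their summed level was 0.569 to 0.679 FPKM with siNC and 0.117 to 0.213 FPKM in siINHBA. Their part in the angiopoietin values was not tested. In these bulk samples, fewer cells of a type and less RNA per cell cannot be told apart.

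**Figure D3:**
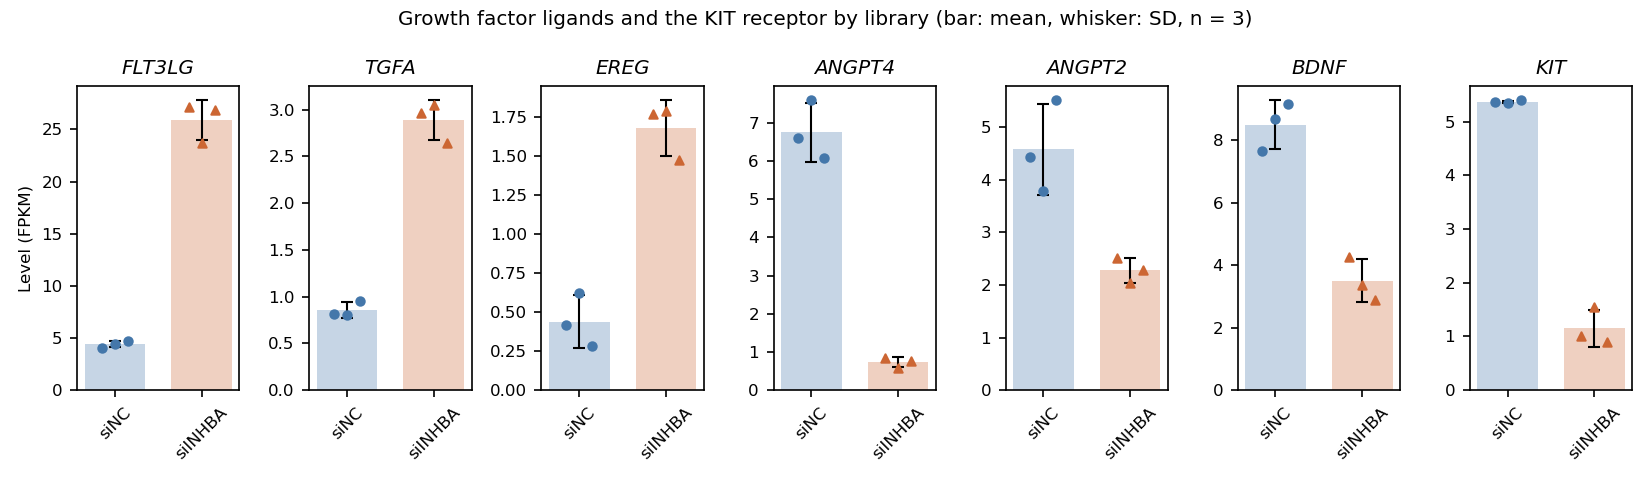
Levels in FPKM of the 6 ligands and the KIT receptor are shown for each library (points), with group means (bars) and SD (whiskers, n = 3). FLT3LG, TGFA and EREG are higher in all 3 siINHBA libraries, and ANGPT4, ANGPT2, BDNF and KIT are lower in all 3 on this scale; under TMM the ANGPT2 difference was 0.08 on the log2 scale.

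KIT, the receptor of KIT ligand, was the 1 receptor among the 33 genes. It stood at 5.36, 5.35 and 5.40 FPKM under siNC and at 1.01, 1.54 and 0.897 FPKM in siINHBA, a log2 fold change of -2.21 (edgeR: SE 0.19, adjusted p = 3e-06) and of -1.12 under TMM (edgeR adjusted p = 0.00027). The siNC libraries hardly differed, whereas siINHBA library 2 was higher than the other two. KIT is best known in the ovary from oocytes and theca cells. It was the 1 gene listed of 12 oocyte markers, and 2 of 15 theca, stroma and smooth muscle markers were listed, DES and PDGFRB. The summed level of DES and PDGFRB was 63.0 to 65.9 FPKM with siNC and 16.1 to 21.6 FPKM in siINHBA; their part in the KIT values was not tested. In the wider list of 28 receptor tyrosine kinases 5 were listed and all 5 were lower (KIT, PDGFRB, KDR, CSF1R and MET), 3 of them also under TMM, where CSF1R had a value of -0.02 and MET of 0.06. Only genes the authors had called could be listed, and 65.7% of them were lower, with 22.5% passing as lower under TMM.

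Of genes for proteins that act next to the receptor and in the PI3K arm 4 of 4 were lower, against 65.7% of all listed genes; under TMM 1 of 4 passed as lower, against 22.5% of listed genes, and SGK1 turned just above 0. GAB2, a scaffold that brings PI3-kinase and the phosphatase SHP2 to activated receptors, was at 24.7, 27.5 and 26.7 FPKM under siNC and at 5.92, 9.55 and 8.30 FPKM in siINHBA. The log2 fold change was -1.74 (edgeR: SE 0.16, adjusted p = 4.7e-06), and it passed under TMM as well, at -0.65 (edgeR adjusted p = 0.0046). The siINHBA library 1 was the lowest of the 6. SGK1, a kinase related to AKT that is activated through PI3-kinase, was at 235, 229 and 232 FPKM under siNC and at 115, 115 and 109.6 FPKM in siINHBA. Its spread was the smallest in siINHBA among the 33 genes (2.62%), and its log2 fold change was -1.03 (edgeR: SE 0.09, adjusted p = 3.4e-06) at the recovered depth and 0.06 under TMM (edgeR adjusted p = 0.67). PPP2R3A, a regulatory subunit of the phosphatase PP2A, was at 0.969 to 1.10 FPKM with siNC and 0.338 to 0.428 FPKM in siINHBA, at -1.39 on the log2 scale (SE 0.18) and -0.30 under TMM (edgeR adjusted p = 0.18).

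BANK1, a scaffold protein of B cell receptor signalling, was at 0.910, 1.55 and 1.37 FPKM under siNC and at 0.664, 0.328 and 0.372 FPKM in siINHBA. Its log2 fold change was -1.49 (edgeR: SE 0.31, adjusted p = 8e-04), and -0.40 under TMM (edgeR adjusted p = 0.3). The highest siINHBA library and the lowest siNC library were close together. Of 16 leukocyte markers CSF1R and C1QA were listed, of which CSF1R did not pass under TMM (edgeR adjusted p = 0.95), with a summed level of 2.59 to 2.72 FPKM with siNC and 0.302 to 0.628 FPKM in siINHBA. Their part in the BANK1 values was not tested, and the B cell markers of that list, CD79A and MS4A1, were not among the listed genes.

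FOXO3, the forkhead transcription factor that AKT keeps out of the nucleus and that holds primordial follicles dormant in mice, was at 21.8, 21.2 and 20.4 FPKM under siNC and at 8.54, 11.1 and 9.31 FPKM in siINHBA. It was 45.7% of the control mean, with a log2 fold change of -1.13 (edgeR: SE 0.12, adjusted p = 8.7e-06), which was -0.04 under TMM (edgeR adjusted p = 0.81). Of 23 FOXO target genes 2 were listed, and both were lower, against 65.7% of all listed genes. CDKN1A, which that list left out, was higher at 1.46, so these 2 genes do not stand for FOXO targets as a whole. SESN3, a stress-induced regulator of mTORC1, had a log2 fold change of -2.34 and passed under TMM at -1.26, and PIK3IP1, an inhibitor of PI3-kinase, was at -1.32 and did not pass under TMM (edgeR adjusted p = 0.14). GNG4, a G protein gamma subunit through which heterotrimeric G proteins can reach PI3-kinase, was at 1.99, 2.46 and 1.95 FPKM under siNC and at 0.676, 0.848 and 0.716 FPKM in siINHBA, at -1.52 on the log2 scale (edgeR: SE 0.18, adjusted p = 1.8e-05). Under TMM GNG4 was at -0.43 and just missed the threshold (edgeR adjusted p = 0.054). In the PI3K-AKT-mTOR core list 6 of 36 genes were listed and all 6 were lower, against 65.7% of all listed genes. Under TMM 1 of the 6, PIK3R3, passed as lower, against 22.5% of all listed genes. SGK1 and PIK3R2 had TMM values of 0.06 and 0.02. PIK3R3, a regulatory subunit of PI3-kinase, was at 2.04 to 2.32 FPKM with siNC and 0.424 to 0.463 FPKM in siINHBA.

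Among 5 regulators of Ras 4 were lower and 1 was higher, against 65.7% and 34.3% of all listed genes. Under TMM 1 of the 5 passed as lower, against 22.5% of all listed genes. PTPN11, which encodes the phosphatase SHP2 that promotes Ras activation downstream of many receptors, was at 22.1, 22.4 and 21.0 FPKM under siNC and at 9.55, 10.3 and 8.44 FPKM in siINHBA, a log2 fold change of -1.19 (edgeR: SE 0.11, adjusted p = 3.9e-06) and of -0.10 under TMM (edgeR adjusted p = 0.44). RASAL1, a GTPase-activating protein that turns Ras off, was at 4.12, 4.50 and 4.56 FPKM under siNC and at 1.44, 2.11 and 2.17 FPKM in siINHBA. This was a log2 fold change of -1.20 (edgeR: SE 0.18, adjusted p = 8.2e-05) and -0.11 under TMM (edgeR adjusted p = 0.67). Proteins that promote and proteins that end Ras signalling were thus both among the lower genes. RASGRF2, a calcium-responsive exchange factor for Ras, was at 37 to 46 counts in siNC and 4 to 12 counts in siINHBA, so its log2 fold change of -2.57 (edgeR: SE 0.36, adjusted p = 6e-05) rests on few reads. It passed under TMM at -1.48 (edgeR adjusted p = 0.0053).

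RASGEF1A and RASGEF1B, which share an exchange factor domain, had changes of opposite sign. RASGEF1B was at 2.76, 2.87 and 2.46 FPKM under siNC and at 0.943, 1.04 and 0.835 FPKM in siINHBA, a log2 fold change of -1.52 (edgeR: SE 0.18, adjusted p = 1.6e-05) and of -0.43 under TMM (edgeR adjusted p = 0.054). RASGEF1A was at 0.521, 0.505 and 0.335 FPKM under siNC and at 0.738, 1.14 and 1.22 FPKM in siINHBA, a log2 fold change of 1.14 (edgeR: SE 0.26, adjusted p = 0.0016). The FPKM ratio of RASGEF1A to RASGEF1B, which no library scaling can change, was 0.188, 0.176 and 0.137 in siNC and 0.783, 1.09 and 1.47 in siINHBA. This pair was chosen after its values were seen, so the separation of the groups is a description and was not tested.

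In the MAPK cascade 2 of 3 kinases and scaffolds were lower and 1 was higher, against 65.7% and 34.3% of all listed genes. TAOK2, a kinase upstream of p38 and JNK, was at 17.2, 17.3 and 18.2 FPKM under siNC and at 6.12, 8.83 and 8.93 FPKM in siINHBA. Its log2 fold change of -1.10 (edgeR: SE 0.15, adjusted p = 4.3e-05) became -0.01 under TMM (edgeR adjusted p = 0.95). LOC114113152, annotated as a MAP3K20-like kinase, was at 45 to 63 counts in siNC and 20 to 32 in siINHBA, at -1.11 on the log2 scale and -0.02 under TMM (edgeR adjusted p = 0.96); reads may be shared with MAP3K20 itself, so its value is uncertain. MAPK8IP2, the scaffold JIP2 that holds JNK cascade kinases together, was higher, at 1.20, 1.46 and 1.54 FPKM with siNC and 2.88, 4.27 and 3.40 FPKM in siINHBA. MAPK8IP2 rose by 1.32 on the log2 scale (edgeR: SE 0.19, adjusted p = 7.1e-05). A separate list of 51 MAPK cascade genes, which left out TAOK2 and LOC114113152, had 6 listed. Of these 3 were higher and 3 lower, against 34.3% and 65.7% of all listed genes. Beside MAPK8IP2 the higher ones were MAPK12, the p38 gamma kinase (log2 fold change 1.29), and MAP3K5, the stress kinase ASK1 (1.45). The lower ones were MAP2K6, an activator of p38 (-2.18), RPS6KA5, the kinase MSK1 (-1.55), and MAP3K1 (-1.09), of which MAP3K1 had a value of -0.002 under TMM (edgeR adjusted p = 0.99).

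The 2 phosphatases that inactivate MAP kinases changed in opposite directions. PTPN5, the tyrosine phosphatase STEP that is best known from neurons and dephosphorylates ERK and p38, was at 15.9, 15.9 and 14.5 FPKM under siNC and at 2.90, 3.68 and 3.40 FPKM in siINHBA. PTPN5 changed by -2.21 on the log2 scale (edgeR: SE 0.13, adjusted p = 6.1e-07) and -1.12 under TMM (edgeR adjusted p = 1.8e-05). DUSP4, a nuclear dual-specificity phosphatase that ERK activity induces, was low in every library, with 27, 19 and 14 counts in siNC and 55, 73 and 83 counts in siINHBA. The change of DUSP4 was 1.76 on the log2 scale (edgeR: SE 0.30, adjusted p = 0.00023). Even in siINHBA, DUSP4 stood at 0.348 ± 0.041 FPKM against 3.33 ± 0.39 FPKM for PTPN5 (mean ± SD, n = 3). Of 23 feedback inhibitors of ERK signalling 3 were listed, the third being SPRY3, a Sprouty family member, at 1.09 on the log2 scale. Of 30 immediate early and ERK-responsive genes FOS and KLF4 were listed. FOS was lower at -1.26 and did not pass under TMM (edgeR adjusted p = 0.41), and KLF4 was higher at 1.50.

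Calcium channels and phospholipases, which feed calcium and lipid messengers into these pathways, were lower in 6 of 7 cases, and in 4 of 7 under TMM, against 65.7% and 22.5% of all listed genes. CACNA1G, a T-type voltage-gated calcium channel, was at 3.99, 4.82 and 3.92 FPKM under siNC and at 0.535, 1.14 and 1.04 FPKM in siINHBA, a log2 fold change of -2.16 (edgeR: SE 0.25, adjusted p = 1.5e-05) and of -1.07 under TMM (edgeR adjusted p = 0.0027). The related T-type channel CACNA1H and the L-type channel CACNA1C stayed under 1 FPKM, at -1.25 and -1.22 on the log2 scale, and under TMM they were at -0.16 and -0.14 (edgeR adjusted p = 0.63 and 0.71). The CACNA1C values were uneven in siINHBA, where library 2 was at 0.530 FPKM and the others at 0.238 and 0.289 FPKM. CACNA1C is a channel of smooth muscle, and DES and PDGFRB, whose sums are given with KIT, were lower as well; their part in this value was not tested.

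The secreted phospholipases PLA2G2F and PLA2G3 release fatty acids such as arachidonic acid from membrane lipids. PLA2G2F was at 5.97, 6.35 and 4.41 FPKM under siNC and at 0.344, 0.787 and 1.21 FPKM in siINHBA, a log2 fold change of -2.80 (edgeR: SE 0.35, adjusted p = 2.9e-05). It had the widest spread in siINHBA among the 33 genes, a coefficient of variation of 55.4%. PLA2G3 was at 5.43, 4.80 and 5.43 FPKM under siNC and at 1.75, 1.72 and 1.56 FPKM in siINHBA, at -1.64 on the log2 scale (edgeR: SE 0.15, adjusted p = 3.8e-06). PLCE1, a phospholipase C that binds Ras, was at 123 to 150 counts in siNC and 20 to 27 counts in siINHBA, at -2.52 on the log2 scale (edgeR: SE 0.23, adjusted p = 3.9e-06). All 3 of these passed as lower under TMM. LOC101120029, annotated as HRAS-like suppressor 3, a phospholipase and acyltransferase, was the 1 higher gene here, at 6.82, 4.14 and 4.98 FPKM with siNC and 15.3, 11.6 and 13.8 FPKM in siINHBA, a log2 fold change of 1.28 (edgeR: SE 0.19, adjusted p = 9.4e-05).

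The remaining 3 genes were all higher, but their place in these pathways rests on sequence matches of uneven strength. HSPA6, an inducible HSP70 chaperone, was at 0.684, 0.762 and 0.455 FPKM under siNC and at 1.43, 1.95 and 1.58 FPKM in siINHBA. Its log2 fold change was 1.38 (edgeR: SE 0.23, adjusted p = 0.00021). HSP70 genes are alike in sequence, so some of its reads may be shared. ISOC2, an isochorismatase domain protein, was at 38.8, 38.5 and 39.9 FPKM under siNC and at 81.2, 82.2 and 87.1 FPKM in siINHBA, a log2 fold change of 1.10 (edgeR: SE 0.10, adjusted p = 3.6e-06). The deposited annotation places it under MAPK signalling through a match to a MAP kinase kinase with an expect value of 1.4e-07. VPS9D1, a VPS9 domain protein, was at 2.07, 2.07 and 2.28 FPKM under siNC and at 6.02, 6.38 and 5.93 FPKM in siINHBA, a log2 fold change of 1.50 (edgeR: SE 0.14, adjusted p = 3.7e-06). It is placed under Ras signalling through a match to the Ras effector RIN1 with an expect value of 6.4e-06. In all, 5 of the 33 genes were matched to a KEGG entry of another name: besides ISOC2 and VPS9D1 these were BANK1, matched to the PI3-kinase adaptor PIK3AP1, and RASGEF1A and RASGEF1B, matched to the exchange factor SOS of insects. Without ISOC2 and VPS9D1, 8 genes were higher and 23 lower.

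Many other KEGG terms were carried by several of these genes, and outside the 3 pathways no term was carried by more than 4 of the 33. Calcium signalling, circadian entrainment, FoxO signalling, Rap1 signalling and pathways in cancer were each annotated to 4. All 3 listed genes annotated to linoleic acid metabolism were among the 33, namely PLA2G2F, PLA2G3 and LOC101120029. The 3 calcium channels were annotated to cortisol synthesis and secretion and to GnRH secretion, for which 8 and 7 listed genes carry the term. The membership rule used this same annotation column, so these counts describe the annotation only.

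The 62 other listed genes annotated to the 3 pathways, which include AREG and the genes left out for their cytokine, inflammatory, adhesion or cell cycle terms, showed a similar split, with 40 lower (64.5%) and 22 higher (35.5%). Their median log2 fold change was -1.11, and that of the 33 genes was -1.20. The lower genes among the 33 had a median fold change of 2.81 and the higher genes of 2.72, and over all listed genes these were 2.64 and 2.80. The largest rises reached 2.50 on the log2 scale among the 33 genes and 3.46 among the other 62, and the largest falls were -3.21 and -2.55. In the broader list of 44 receptor tyrosine kinase ligands 10 were listed, 6 higher and 4 lower, against 34.3% and 65.7% of all listed genes. Under TMM 6 passed as higher and 2 as lower, against 34.3% and 22.5% of all listed genes. Outside the 33 genes the higher ligands included AREG and CSF1, and the lower one was FGF22.

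**Figure D4:**
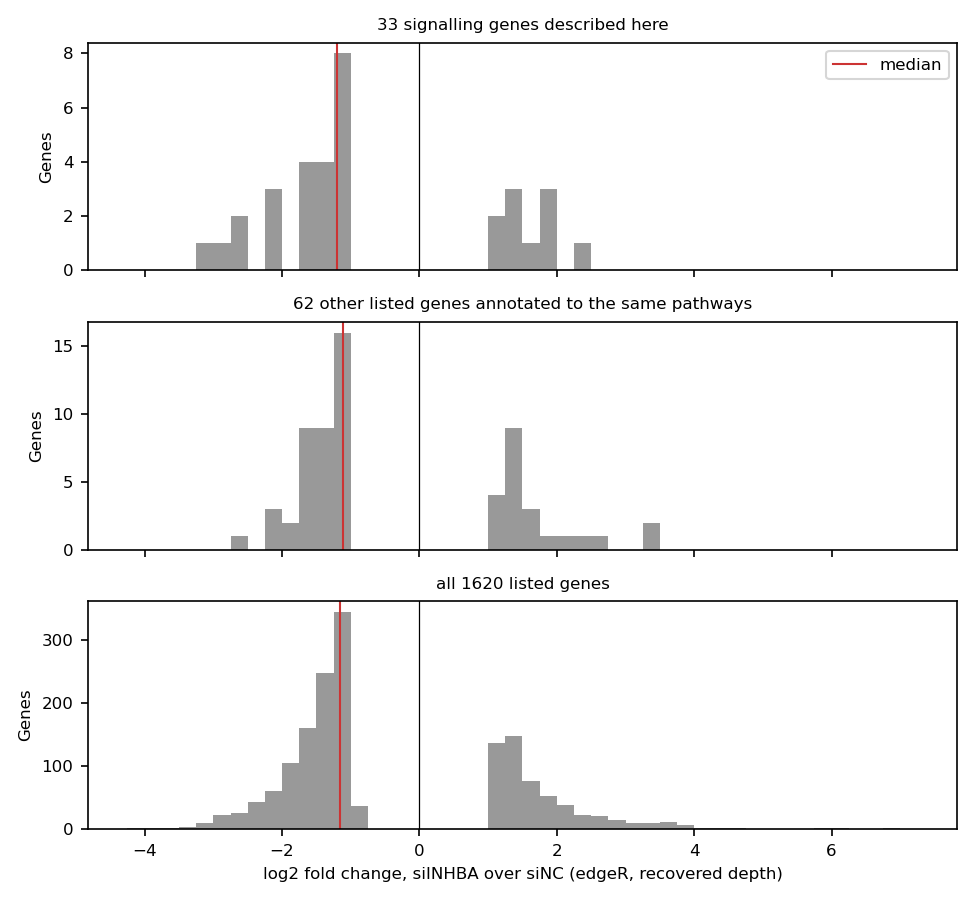
Histograms of the log2 fold change (siINHBA over siNC, edgeR at the recovered depth, bins of 0.25) are shown for the 33 genes, the 62 other listed genes annotated to the same pathways and all 1620 listed genes, with the median as a vertical line. The medians lie at -1.20, -1.11 and -1.16, and bins near 0 are empty since the authors listed no gene under an absolute log2 fold change of 1.00.

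Ratios between opposed genes, chosen after their values were seen, do not depend on the scaling. The FPKM ratio of FLT3LG to ANGPT4 was 0.614, 0.586 and 0.775 in siNC and 32.2, 40.9 and 35.4 in siINHBA, a 55.1-fold rise of the geometric mean. The ratio of TGFA to BDNF was 0.101 ± 0.008 in siNC and 0.839 ± 0.123 in siINHBA (mean ± SD, n = 3), that of MAPK8IP2 to TAOK2 was 0.080 ± 0.009 and 0.445 ± 0.057, and that of DUSP4 to PTPN5 was 0.0064 ± 0.0021 and 0.105 ± 0.005. Each ratio sets a gene called higher over a gene called lower, so the choice of pairs fixed their direction.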

How the data were processed

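Poly(A) RNA was captured with oligo(dT) beads and copied with random hexamers, per the labels' protocols; not given in the sources used here are the aligner, counter, strand setting, test and genome build, and coordinates are left out. Per the file headers, the deposited table holds the authors' raw read counts and FPKM per gene and library, beside the log2 fold change and false discovery rate (a p-value adjusted for multiple tests) of the authors' comparison. Incomplete lines, 4 in all, were dropped. The pathway annotation of 3 listed genes, PIK3R2 and PIK3R3 among them, was not used here, so these genes count neither among the 33 nor among the 62 others, nor in the PI3K-Akt counts. A total of 32 of the 33 genes matched the symbols of the RefSeq gene table of assembly ARS-UI_Ramb_v3.0. Overlapping and antisense genes could not be told apart.

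Relative library depth was derived by dividing count by FPKM for the 702 genes that exceeded 200 counts in each library. The quasi-likelihood test of edgeR 4.0.16 in R 4.3.3 (glmQLFit, then glmQLFTest), after filterByExpr at a minimum count of 10, was run on counts of all 1620 listed genes without a block, with Benjamini-Hochberg adjustment and a threshold of 0.05. Each SE was obtained by dividing the absolute log2 fold change by the root of the F statistic. Alternatives were TMM, DESeq2 1.42.0, limma 3.58.1 on log2(FPKM + 1) and log2(FPKM + 0.1), other filters, a replicate block and leaving out each library. No 2 libraries of a group agreed within counting error (mean chi-square per gene 5.37 to 47.8), and all were counted separately.

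The members, roles, gene lists and tests were chosen with earlier results of these data known. Within each role the up to 4 genes of at least 1 FPKM with the smallest adjusted p were described, with the 4 highest levels and the 4 largest rises and falls; these rules gave 29 genes, and the other 4 (ANGPT2, LOC114113152, CACNA1C and CACNA1H) were added so that all 33 are accounted for. Promoter motifs were not analysed here.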

Additional observations from a re-analysis of the deposited data

How the results depend on the processing

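The direction and call of the lower genes depended on the library scaling. TMM over the listed genes and DESeq2 with its own size factors both set the typical listed gene near 0, so any change common to most of the table is taken out by their construction. Each left 9 of the 33 genes past the threshold as lower in place of 23. For PI3K-Akt 2 of 12 genes passed as lower in place of 9. For MAPK these were 5 of 20 in place of 12, and for Ras 7 of 16 in place of 12. Under TMM the 3 shares were 16.7%, 25% and 43.8%, against 22.5% of all listed genes. Under both scalings the genes past the threshold numbered 1 of 4 for PI3K-AKT-mTOR components and 2 of 5 for Ras regulators. They numbered 1 of 3 for MAPK cascade kinases and scaffolds, and 0 for GNG4 and for FOXO3. GNG4 had an adjusted p of 0.054 in edgeR with TMM and 0.064 in DESeq2 (unadjusted 0.031 and 0.037), and FOXO3 of 0.81 and 0.82 (unadjusted 0.73 and 0.74). The median log2 fold change was -0.11 under each, and ANGPT2 (0.079 and 0.081) and SGK1 (0.056 and 0.055) turned positive. INHBA was at -0.41 under each, against -1.49 at the recovered depth. With limma on log2(FPKM + 1) the median was -0.64, because the pseudocount shrinks low genes. Without the exclusions of the rule, 63 of 95 annotated genes were lower and 32 higher. The exact-name, match-strength and 1 FPKM choices of members were added after seeing the data, and each kept the median between -1.22 and -1.19.

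Across 10 other settings, 300 of 328 values of single genes kept direction and call, 24 no longer passed and 4 reversed. These 28 all came from TMM and DESeq2 with its own size factors. The log2 fold change minimum of 1 and the lack of a filter could not differ from the main fit. All of the 33 genes met that minimum, and the filter removed no listed gene. The depth from genes over 1000 counts was nearly the same as the recovered depth. The number of kept values thus overstates how many separate checks were made. Leaving out each library in turn kept all 198 values, 23 lower and 10 higher genes, a median of -1.25 to -1.15 and INHBA at -1.64 to -1.38. No label ties replicate numbers to a shared origin, and same-numbered libraries correlated at 0.075, 0.203 and -0.009 in their deviations from the group means; with a replicate block 23 genes were lower and 10 higher, INHBA was at -1.51 and the median at -1.22. At the lowest levels precision is limited by counts, as in RASGRF2 with 4 to 12 counts per siINHBA library.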
